A study of Rattus norvegicus with 12 samples.

Results

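The transcripts described here encode 8 secreted proteins of the dense-core vesicle: the opioid precursors Penk and Pdyn, the tachykinin precursor Tac1, neurotensin (Nts), Cartpt, the PACAP precursor Adcyap1, and the granins Scg2 and Chgb. The genes were taken by symbol, all 8 were found among 17172 genes in the files, and all 8 passed the filter on low counts, which kept 11750 genes. Their reads were counted in rat ventral dentate gyrus, at the emotion-related pole of the hippocampus. The 12 libraries fall into 4 groups of 3, all from male rats of Sprague-Dawley background. LAC responders and LAC non-responders are Flinders Sensitive Line (FSL) rats, a line bred as a model of depression, that were given L-acetyl-carnitine (LAC) in the drinking water (0.3% w/v, an intake near 210 mg per kg body weight daily) over 7 days. The FSL vehicle group is the same line on tap water, and the FRL vehicle group is the Flinders Resistant Line on tap water. Responder and non-responder are the labels' own terms, and FSL vehicle was not divided in that way, so a difference between the 2 LAC groups cannot be told apart from one present before treatment. No source used here gives the ages, the number of rats behind a library or the measure of response. The design text calls the libraries biological replicates, and p-values below measure the spread between these samples.

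Neuropeptides are made as long precursors, packed into dense-core vesicles, cut there by prohormone convertases and released by strong or repeated firing. The granins are acidic proteins that help these vesicles form and are themselves cut into peptides. In rodents, dentate granule neurons store dynorphin in their mossy fibre terminals. Enkephalin, substance P, neurotensin and CART occur in interneurons or in neighbouring limbic, striatal, thalamic and hypothalamic neurons, among other cells. This list is not exhaustive. Which cells the Penk reads came from, granule neurons among them, was not tested.

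Many peptide genes carry a cAMP response element (CRE, TGACGTCA), the palindromic site bound by CREB, close to their start, so the 250 bases before the annotated start were read for the members from RefSeq sequence of the assembly GRCr8. A window was found for 7 of the 8 members; the entry that was not found is Penk. The CRE stood in 2 of the 7, Scg2 and Cartpt, against 1.59% of the 33469 rat promoters of this length. These 2 windows are shown because they hold the CRE, with Chgb as the member whose groups parted most and Pdyn as a granule neuron peptide. Each is given 5′ to 3′ on the gene's own strand and in lower case, with motif matches in capitals.
Scg2: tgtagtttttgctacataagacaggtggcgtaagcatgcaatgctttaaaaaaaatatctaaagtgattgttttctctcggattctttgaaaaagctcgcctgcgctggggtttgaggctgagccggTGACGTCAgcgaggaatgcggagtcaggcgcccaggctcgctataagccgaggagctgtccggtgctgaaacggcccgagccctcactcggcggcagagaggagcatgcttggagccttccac
Cartpt: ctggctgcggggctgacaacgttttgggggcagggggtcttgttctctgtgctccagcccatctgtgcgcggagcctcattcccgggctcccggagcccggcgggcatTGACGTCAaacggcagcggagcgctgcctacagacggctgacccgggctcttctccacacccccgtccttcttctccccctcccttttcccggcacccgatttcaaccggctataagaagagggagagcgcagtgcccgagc
Chgb: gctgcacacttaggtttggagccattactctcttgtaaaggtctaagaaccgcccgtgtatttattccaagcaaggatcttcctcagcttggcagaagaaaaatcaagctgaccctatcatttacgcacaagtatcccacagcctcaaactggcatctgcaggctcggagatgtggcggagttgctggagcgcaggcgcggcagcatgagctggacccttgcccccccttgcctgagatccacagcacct
Pdyn: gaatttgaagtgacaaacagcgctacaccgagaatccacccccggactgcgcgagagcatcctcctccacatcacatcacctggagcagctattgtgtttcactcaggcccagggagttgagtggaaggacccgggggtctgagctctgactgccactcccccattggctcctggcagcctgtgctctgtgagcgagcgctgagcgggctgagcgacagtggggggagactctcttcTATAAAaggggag
The Scg2 window is chr9:88256867-88257116 on the minus strand, and its capitals mark a CRE that begins 123 bases before the start. The Cartpt window is chr2:32991236-32991485 on the minus strand, with a CRE beginning 142 bases before the start. The Chgb window is chr3:140496462-140496711 on the plus strand and held no match to any motif searched. The Pdyn window is chr3:137366504-137366753 on the minus strand, and its capitals mark TATAAA, 13 bases before the start. The motifs searched on both strands were the CRE, its shorter form TGACG (which also lies inside each CRE on both strands), the AP-1 site TGANTCA and TATAAA, which stood in 18.2%, 6.34% and 12.9% of all windows for the last 3. The shorter form stood in 4 of the 7 members, TATAAA in 2 and TGANTCA in 1. These are matches of letters, and the study measured no binding at them.

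Counts in genes summed to 5.91 M to 8.14 M (M, 1000000 counts) per library, and 3 counts correspond to 0.367 to 0.511 CPM, counts per 1000000 counts in genes. CPM here is scaled by edgeR's TMM factors, so levels can be compared between libraries but not between genes, whose lengths were not used. The granule neuron marker Prox1, a transcription factor, stood at 9.18 CPM in LAC responder 1 and 10.4 CPM in FRL vehicle 2, while the remaining 10 libraries had 51.6 to 129 CPM. C1ql2, a secreted synaptic protein of granule neurons, split the same way, at 3.3 and 4.5 CPM in these 2 libraries. Not every marker of these cells did. Stxbp6 was 51.0 to 59.6 CPM in LAC responders, 42.7 to 58.9 CPM in FRL vehicle and 33.4 to 51.9 CPM in FSL vehicle. Calb1 was 109 to 192 CPM in LAC responders, 108 to 133 CPM in FRL vehicle and 89.3 to 135 CPM in non-responders. Trpc6 reached down to 16.5 CPM in LAC responders, and Rfx3 to 41.6 CPM in FRL vehicle. In bulk tissue such as this, fewer cells of a type and less RNA per cell cannot be told apart. Of 8 granule neuron markers 7 were in the files, and their sum was 352 to 597 CPM in LAC responders, 432 to 501 CPM in non-responders, 414 to 575 CPM in FSL vehicle and 268 to 548 CPM in FRL vehicle. Tdo2 of that list was at 0 or 1 count throughout. For each member, fold changes are therefore also given without LAC responder 1, FRL vehicle 2 or both.

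No member passed the adjusted p of 0.05 in any of the 4 comparisons (edgeR quasi-likelihood test, Benjamini-Hochberg adjustment over all 11750 genes), nor did any with DESeq2 or limma-voom. Over all genes, that threshold called 0.0681% in FSL vehicle against FRL vehicle and 0% in each of the 3 comparisons that involve LAC. At an unadjusted p under 0.05, 1 of 8 members was found in each of FSL vehicle against FRL vehicle, responders against FSL vehicle and non-responders against FSL vehicle, and 0 in responders against non-responders. The share of all genes at that level was 13.9%, 13.8%, 4.21% and 3.14%, in that order. The 1 member was Chgb each time. Taken by overlap instead, the groups were apart for 1 member in FSL vehicle against FRL vehicle (Chgb, lower), 1 in responders against FSL vehicle (Chgb, higher), 2 in non-responders against FSL vehicle (Chgb, higher, and Cartpt, lower) and 0 in responders against non-responders. Over all genes that share was 13.8% (7.57% higher, 6.25% lower), 12.5% (6.37% higher, 6.14% lower), 7.8% (4.68% higher, 3.11% lower) and 11.3% (5.76% higher, 5.54% lower). A count of 1 member of 8 is thus near the background in the first 2 comparisons, and in the third 2 of 8 stand beside 7.8%. The first 3 comparisons share the FSL vehicle libraries and are not independent. A single test over all 4 groups gave Chgb an unadjusted p of 0.0108 and an adjusted p of 0.492 (edgeR quasi-likelihood F test), and the other members adjusted p from 0.762 for Cartpt to 0.990 for Nts; this test called 0.0255% of all genes, and 9.02% at an unadjusted p under 0.05.

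**Figure D1:**
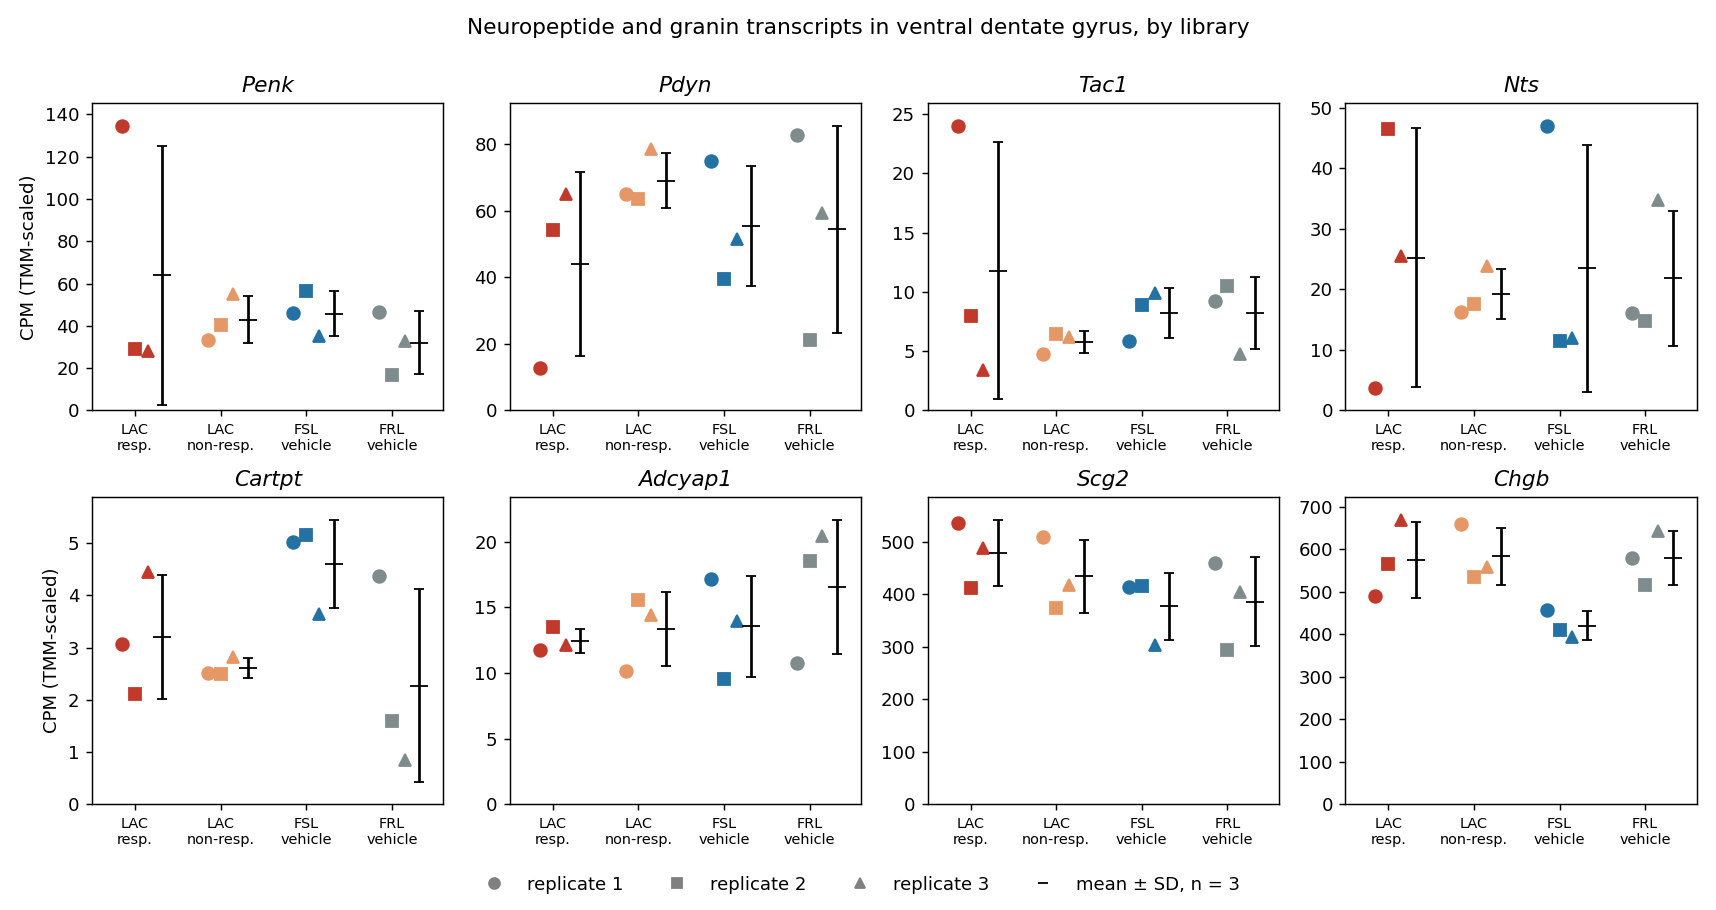
CPM of the 8 members (y axes, each from 0) in LAC responders, LAC non-responders, FSL vehicle and FRL vehicle (x axes); a symbol is 1 library, and the bar beside each group is the mean ± SD of 3. Chgb is at 393 to 458 CPM in FSL vehicle while the other 9 libraries have 491 to 670 CPM, and the wide bars of Penk, Tac1 and Pdyn in LAC responders come with 1 library, responder 1.

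Chgb, which encodes chromogranin B, a granin of nearly all peptide-secreting neurons and endocrine cells, was the member in which the groups parted most. It stood at 491, 565 and 670 CPM in LAC responders 1, 2 and 3, at 660, 534 and 558 CPM in non-responders, at 458, 411 and 393 CPM in FSL vehicle, and at 580, 517 and 643 CPM in FRL vehicle. All 3 FSL vehicle libraries lay below all 9 others, a position held by 118 of the tested genes (1%), while 76 genes (0.647%) held the opposite one. FSL vehicle averaged 421 ± 33.7 CPM and FRL vehicle 580 ± 62.9 CPM (SD, n = 3 each), a log2 fold change of -0.46 ± 0.13 (SE; edgeR quasi-likelihood, adjusted p = 0.245). Chgb was thus lower in 3 of 3 FSL vehicle libraries than in every FRL vehicle library, as were 6.25% of all genes. LAC responders averaged 575 ± 89.7 CPM (SD, n = 3), and their log2 fold change from FSL vehicle was 0.45 ± 0.13 (SE; edgeR quasi-likelihood, adjusted p = 0.266). Non-responders averaged 584 ± 66.8 CPM (SD, n = 3), with 0.47 ± 0.13 (SE; edgeR quasi-likelihood, adjusted p = 0.976). Genes higher with no overlap made up 6.37% of all genes in the responder comparison and 4.68% in the non-responder comparison. By unadjusted p, Chgb ranked 24 of 11750 genes in the non-responder comparison and 209 in each of the other 2. The order of means was non-responders, FRL vehicle, LAC responders and FSL vehicle, and only FSL vehicle stood apart from its neighbour with no overlap. Responders against non-responders had -0.02 ± 0.13, with a 95% interval of -0.31 to 0.26.

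Meningeal and fibroblast markers varied widely between libraries and were highest in the 2 libraries lowest in Chgb. The sum of 11 markers, of which Col1a2 was listed at 0 throughout, was 97.5 to 251 CPM in LAC responders, 359 to 643 CPM in non-responders, 259 to 2832 CPM in FSL vehicle and 174 to 358 CPM in FRL vehicle. FSL vehicle 2 and 3, lowest in Chgb, had the highest sums, 892 and 2832 CPM. FSL vehicle 1, at 458 CPM of Chgb, had a sum of 259 CPM, and the 3 non-responders, with sums above every FRL vehicle library, had 534 to 660 CPM of Chgb. With that sum as a covariate, an alternative chosen after seeing the data, the Chgb log2 fold change was -0.24 ± 0.14 for FSL vehicle against FRL vehicle, 0.14 ± 0.16 for responders against FSL vehicle and 0.38 ± 0.11 for non-responders against FSL vehicle. Oligodendrocyte markers (5 genes) summed to 4897 to 9240 CPM in LAC responders, 6218 to 10330 CPM in non-responders, 3500 to 4981 CPM in FSL vehicle and 4506 to 6421 CPM in FRL vehicle. Choroid plexus markers (10 genes) summed to 13.0 to 48.5 CPM in LAC responders, 17.3 to 6279 CPM in non-responders, 45.5 to 3349 CPM in FSL vehicle and 12.7 to 26.6 CPM in FRL vehicle. Non-responder 1, with the highest choroid sum of all, had 660 CPM of Chgb. The part of meningeal tissue, oligodendrocytes and choroid plexus in the Chgb values was not tested, and the covariate fit does not decide it. Leaving out LAC responder 1 and FRL vehicle 2, Chgb had -0.54, 0.55 and 0.47 in the 3 comparisons in that order. Over all the alternatives, the adjusted p of Chgb was 0.0567 to 0.992 in the line comparison, 0.0632 to 0.958 for responders and 0.253 to 1 for non-responders, the first 2 minima with DESeq2 and the third without FSL vehicle 1.

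Scg2, secretogranin II, the source of the peptide secretoneurin, stood at 536, 412 and 489 CPM in LAC responders, 510, 374 and 418 CPM in non-responders, 414, 415 and 304 CPM in FSL vehicle, and 460, 293 and 405 CPM in FRL vehicle. The groups overlapped in every comparison. LAC responders averaged 479 ± 62.9 CPM, non-responders 434 ± 68.9, FSL vehicle 377 ± 64.0 and FRL vehicle 386 ± 85.1 (SD, n = 3 each). The order of means was LAC responders, non-responders, FRL vehicle and FSL vehicle, and no neighbours in it differed beyond their spread. Responders against FSL vehicle had a log2 fold change of 0.34 ± 0.19 (95% interval -0.06 to 0.75), which came to 0.04 with the meningeal covariate. Without LAC responder 1 and FRL vehicle 2, Scg2 had -0.20 in FSL vehicle against FRL vehicle, 0.255 and 0.20 in responders and non-responders against FSL vehicle, and 0.06 in responders against non-responders. Per 100 Chgb reads there were 109, 72.9 and 73.1 Scg2 reads in LAC responders, 77.2, 70.1 and 74.9 in non-responders, 90.3, 101 and 77.3 in FSL vehicle and 79.3, 56.7 and 63.1 in FRL vehicle. Every FSL vehicle library but the third was thus above every FRL vehicle library, and LAC responder 1 was highest and FRL vehicle 2 lowest of the 12.

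**Figure D2:**
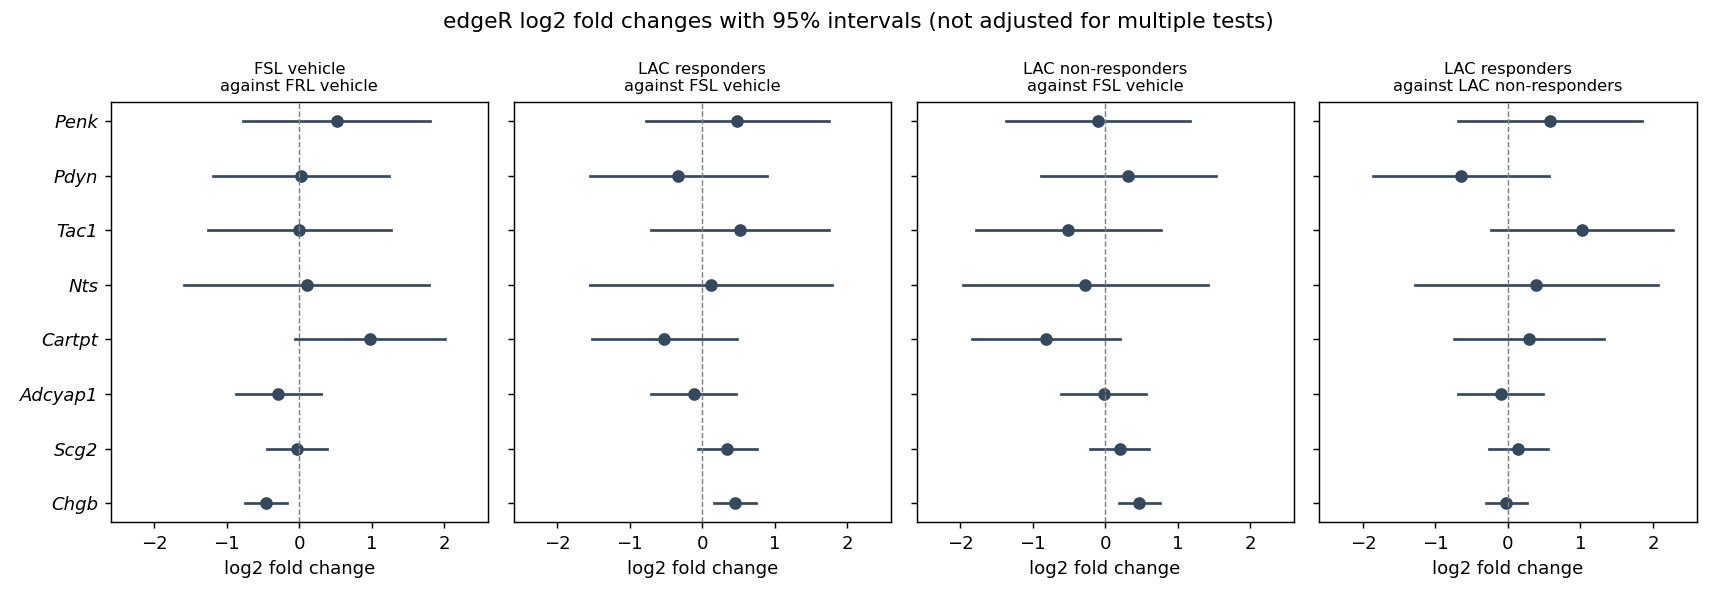
edgeR log2 fold changes (points, x axes) of the 8 members with 95% intervals (lines, not adjusted for multiple tests) in the 4 comparisons, the first-named group over the second. The Chgb interval excludes 0 in the first 3 panels, at -0.75 to -0.18, 0.17 to 0.74 and 0.19 to 0.76, and the intervals of Nts are the widest.

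Pdyn encodes prodynorphin, precursor of the dynorphins, which act mainly at the kappa opioid receptor. Its level was 12.9, 54.2 and 65.0 CPM in LAC responders, 65.0, 63.5 and 78.5 CPM in non-responders, 75.1, 39.6 and 51.6 CPM in FSL vehicle, and 82.8, 21.2 and 59.4 CPM in FRL vehicle. The 2 lowest of the 12 were LAC responder 1 and FRL vehicle 2, the libraries low in Prox1, and the groups overlapped in all comparisons. LAC responders averaged 44.0 ± 27.5 CPM, non-responders 69.0 ± 8.27, FSL vehicle 55.4 ± 18.1 and FRL vehicle 54.5 ± 31.1 (SD, n = 3 each). The order of means was non-responders, FSL vehicle, FRL vehicle and LAC responders, with every neighbouring difference inside the spread. The log2 fold change was 0.02 ± 0.55 in FSL vehicle against FRL vehicle, -0.33 ± 0.55 in responders against FSL vehicle, 0.32 ± 0.55 in non-responders against FSL vehicle and -0.65 ± 0.55 in responders against non-responders. Without LAC responder 1 and FRL vehicle 2, the first of these was -0.36, the second 0.11 and the last -0.21. With the meningeal sum as covariate they moved the other way, to 0.78, -1.40 and -1.46.

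Set against Prox1 in the same library, Pdyn varied less than alone, outside the 2 libraries low in Prox1. There were 55.1 to 80.3 Pdyn reads per 100 Prox1 reads in the 10 libraries with high Prox1, and 140 and 204 in LAC responder 1 and FRL vehicle 2. Within the 10, the ratio was 60.9 and 55.1 in LAC responders 2 and 3, 77.5, 80.3 and 80.2 in non-responders, 58.2, 76.8 and 74.4 in FSL vehicle, and 79.2 and 79.5 in FRL vehicle 1 and 3. The 2 remaining responders were below all 3 non-responders and the FRL vehicle pair, and overlapped FSL vehicle. With LAC responder 1 included, the responders overlapped the non-responders. The 2 libraries were set aside on Prox1 values seen in these data, and how often other ratios part in this way was not counted. The pooled spread of Pdyn within groups was 0.85 on the log2 scale over 12 libraries and 0.32 over the 10, against a counting error of 0.08.

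**Figure D3:**
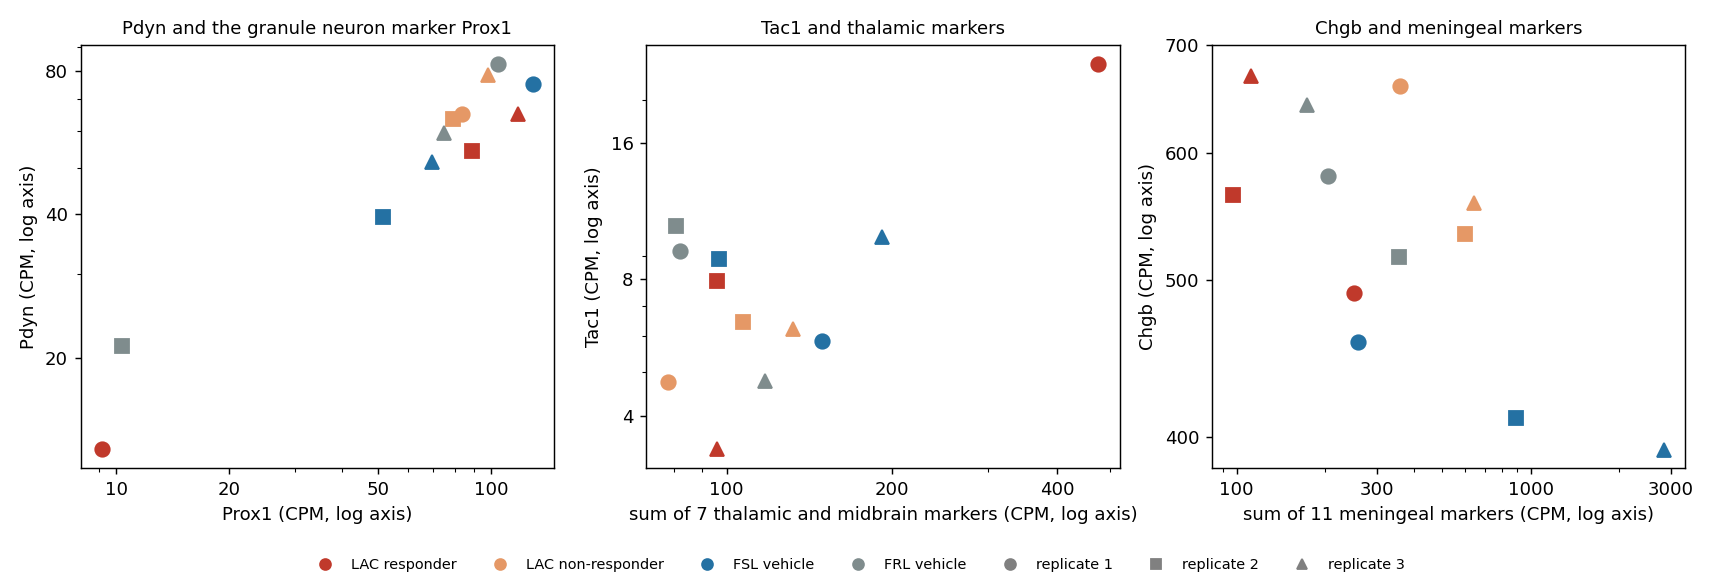
Pdyn against Prox1 (left), Tac1 against the sum of 7 thalamic and midbrain markers (middle) and Chgb against the sum of 11 meningeal markers (right), all as CPM on log axes, 1 symbol a library and 1 colour a group. LAC responder 1 and FRL vehicle 2 lie at the low end of Prox1 and Pdyn, LAC responder 1 alone has a thalamic sum of 475 CPM with a Tac1 of 24.0 CPM, and FSL vehicle 3 has the highest meningeal sum (2832 CPM) with the lowest Chgb (393 CPM).

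Penk encodes proenkephalin, the precursor of Met- and Leu-enkephalin, ligands of delta and mu opioid receptors. It stood at 135, 29.0 and 28.1 CPM in LAC responders, 33.2, 40.2 and 55.1 CPM in non-responders, 45.9, 56.5 and 35.0 CPM in FSL vehicle, and 46.7, 16.8 and 32.7 CPM in FRL vehicle. LAC responder 1 stood far above the next highest library, FSL vehicle 2, and FRL vehicle 2 was the lowest. LAC responders averaged 63.9 ± 61.2 CPM, non-responders 42.8 ± 11.2, FSL vehicle 45.8 ± 10.7 and FRL vehicle 32.0 ± 15.0 (SD, n = 3 each). In the order of means, LAC responders, FSL vehicle, non-responders and FRL vehicle, no neighbours differed beyond their spread. The log2 fold change of responders was 0.48 ± 0.57 against FSL vehicle and 0.58 ± 0.57 against non-responders, and these were -0.68 and -0.58 without LAC responder 1, and 0.86 each with the meningeal covariate. The other 2 responder libraries lay below all FSL vehicle and all non-responder libraries. With LAC responder 1 included, the groups overlapped in both comparisons. How many of all genes hold such a position with 1 library set aside was not counted. FSL vehicle against FRL vehicle had 0.51 ± 0.58, and 0.20 without FRL vehicle 2. Non-responders against FSL vehicle had -0.10 ± 0.58.

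Tac1 encodes the precursor of substance P and neurokinin A. Its level was 24.0, 7.93 and 3.37 CPM in LAC responders, 4.75, 6.46 and 6.21 CPM in non-responders, 5.84, 8.89 and 9.93 CPM in FSL vehicle, and 9.26, 10.5 and 4.77 CPM in FRL vehicle. LAC responder 1 was again highest, with FRL vehicle 2 next, while the third responder was the lowest of the 12. LAC responders averaged 11.8 ± 10.8 CPM, non-responders 5.81 ± 0.93, FSL vehicle 8.22 ± 2.13 and FRL vehicle 8.18 ± 3.03 (SD, n = 3 each). In the order of means, LAC responders, FSL vehicle, FRL vehicle and non-responders, none was apart from its neighbour beyond the spread. Responders against non-responders had a log2 fold change of 1.02 ± 0.57 (edgeR quasi-likelihood, adjusted p = 0.992), which was -0.03 without LAC responder 1 and 1.84 with the meningeal covariate. Against FSL vehicle the value was 0.52 ± 0.56 in responders, which was -0.54 without LAC responder 1 and 1.745 with the covariate, and -0.51 ± 0.58 in non-responders. FSL vehicle against FRL vehicle had 0.00087 ± 0.57, and -0.97 with the covariate.

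LAC responder 1, highest in Penk, Tac1 and Scg2 and lowest in Pdyn and Nts, was also highest in the summed markers of 4 marker lists. The 7 thalamic and midbrain markers summed to 96.0 to 475 CPM in LAC responders, 78.1 to 132 CPM in non-responders, 96.8 to 192 CPM in FSL vehicle and 80.7 to 118 CPM in FRL vehicle. In LAC responder 1, 3 of the 7 were at their highest, among them the thalamic transcription factor Tcf7l2 at 156 CPM and the vesicular glutamate transporter Slc17a6 at 274 CPM, which make up most of the 475 CPM, and none was at 0. The third was Lhx9, at 16.4 CPM. The other 4 were not high there: Prkcd was 18.0 CPM, and at 17.5 to 19.2 CPM all LAC responders lay below every other library (20.6 CPM or more), while Zic1 (6.61 CPM), Lef1 (4.16 CPM) and Gbx2 (1 count) were highest in other libraries. The other 3 lists were mossy cells (189 CPM in LAC responder 1, at most 87.4 CPM elsewhere), hypothalamus (15.1 CPM, at most 12.6 elsewhere) and CA2 (234 CPM, at most 231 elsewhere). Of 5 genes listed as mossy cell markers 3 were at their highest there, Calb2 alone making 99.9 of the 189 CPM. No source used here shows that Calb2 marks mossy cells in rat, so this sum cannot be read as mossy cells. Calcrl and Csf2rb were instead highest in FSL vehicle, at 23.6 and 4.90 CPM. Of 9 hypothalamic markers 2 were at their highest there, Pmch making 9.43 of the 15.1 CPM. For CA2 it was 2 of 4. Striatal projection neuron markers, whose cells in rodents are rich in Penk or Tac1, summed to 291 CPM there, inside the range of 223 to 304 CPM of the other libraries. Of these 8 markers, 2 were at their highest in LAC responder 1, as were 2 each in FSL vehicle 1 and FSL vehicle 3. Drd1 was 10.9 to 30.5 CPM in LAC responders and 15.6 to 23.2 CPM in FRL vehicle. Ppp1r1b (75.4 to 113 CPM) and Pde10a (78.7 to 102 CPM) weighed most in the striatal sum in LAC responders. A rise in markers of lower level would therefore show little in that sum. The part of these cell types in the Penk, Tac1 and Scg2 values was not tested.

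Nts encodes neurotensin, a peptide of the subiculum and of limbic and hypothalamic neurons that acts at Ntsr1 and Ntsr2. It had the widest range of the 8, 12.8-fold between libraries. It stood at 3.67, 46.6 and 25.5 CPM in LAC responders, 16.2, 17.7 and 23.9 CPM in non-responders, 47.0, 11.5 and 11.9 CPM in FSL vehicle, and 16.1, 14.8 and 34.7 CPM in FRL vehicle. LAC responder 1 was the lowest, and FSL vehicle 1 and LAC responder 2 were nearly level at the top. Means of 25.2 ± 21.4 CPM in LAC responders, 19.2 ± 4.07 in non-responders, 23.5 ± 20.4 in FSL vehicle and 21.9 ± 11.2 in FRL vehicle (SD, n = 3 each) lay within the spread of each other, in the order LAC responders, FSL vehicle, FRL vehicle and non-responders. Its log2 fold changes were 0.10 ± 0.76 for FSL vehicle against FRL vehicle, 0.12 ± 0.75 and -0.27 ± 0.76 for responders and non-responders against FSL vehicle, and 0.39 ± 0.76 for responders against non-responders. None kept its sign under every alternative: with 1 library left out they ranged from -0.89 to 0.59, -0.69 to 1.11, -0.61 to 0.72 and -0.41 to 0.91, and with the meningeal covariate they were 1.31, -1.82, -0.51 and -1.31. Without LAC responder 1 and FRL vehicle 2 they were -0.12, 0.63, -0.27 and 0.91. With intervals such as -1.55 to 1.79 for responders against FSL vehicle, changes of 2-fold in either direction were not detectable at this spread.

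Cartpt, precursor of the CART peptides that regulate feeding and stress responses, was the member with fewest reads, 5 to 40 per library. It stood at 3.06, 2.11 and 4.45 CPM in LAC responders, 2.51, 2.50 and 2.82 CPM in non-responders, 5.03, 5.16 and 3.64 CPM in FSL vehicle, and 4.37, 1.60 and 0.85 CPM in FRL vehicle. Every FSL vehicle library was above every non-responder library, and the log2 fold change of non-responders from FSL vehicle was -0.82 ± 0.47 (95% interval -1.84 to 0.21; edgeR quasi-likelihood, adjusted p = 0.976). In that comparison 3.11% of all genes were lower with no overlap. FSL vehicle averaged 4.61 ± 0.84 CPM and FRL vehicle 2.27 ± 1.85 CPM (SD, n = 3 each), a log2 fold change of 0.98 ± 0.47 (edgeR quasi-likelihood, adjusted p = 0.381) that became 1.88 without FRL vehicle 1 and 0.62 without FRL vehicle 3. LAC responders averaged 3.21 ± 1.18 CPM and non-responders 2.61 ± 0.185 CPM (SD, n = 3 each). Responders had -0.52 ± 0.46 against FSL vehicle and 0.29 ± 0.47 against non-responders. Without LAC responder 1 and FRL vehicle 2, Cartpt had 0.77 in FSL vehicle against FRL vehicle, -0.49 and -0.82 in responders and non-responders against FSL vehicle, and 0.32 in responders against non-responders. The order of means was FSL vehicle, LAC responders, non-responders and FRL vehicle, and of these neighbours none differed beyond the spread. For the 5 reads of FRL vehicle 3 an exact Poisson 95% interval runs from 0.276 to 1.99 CPM, and for the 40 reads of FSL vehicle 2 from 3.68 to 7.02 CPM; these cover counting error only.

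Adcyap1 encodes PACAP, a peptide of the glucagon and VIP family that acts at the receptor Adcyap1r1 and is linked to stress responses. It stood at 11.8, 13.5 and 12.1 CPM in LAC responders, 10.2, 15.5 and 14.4 CPM in non-responders, 17.2, 9.54 and 14.0 CPM in FSL vehicle, and 10.8, 18.5 and 20.4 CPM in FRL vehicle. All 4 groups overlapped. The means fell within the spread of each other, at 12.5 ± 0.92 CPM in LAC responders, 13.4 ± 2.84 in non-responders, 13.6 ± 3.84 in FSL vehicle and 16.6 ± 5.10 in FRL vehicle (SD, n = 3 each). The largest of the 4 log2 fold changes was -0.29 ± 0.27, for FSL vehicle against FRL vehicle. Without LAC responder 1 and FRL vehicle 2, that value was -0.19, and the other 3 lay between -0.08 and -0.02. FRL vehicle 3, the highest library, was also highest in CA1 and subiculum markers (729 CPM) and in astrocyte markers (3592 CPM), whose part in this value was not tested.

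The 8 members varied within groups to unlike degrees. The pooled within-group SD of log2 CPM was 0.17 for Chgb and 0.26 for Scg2, values that 45.7% and 66.9% of all tested genes undercut. It was 0.36 for Adcyap1, 0.59 for Cartpt, 0.78 for both Penk and Tac1, 0.85 for Pdyn and 1.15 for Nts, and for Nts 98.7% of all genes had a smaller one. Counting error alone would give 0.02 for Chgb, 0.14 for Nts and 0.35 for Cartpt. Without LAC responder 1 and FRL vehicle 2 the SD came to 0.33 for Penk, 0.32 for Pdyn and 0.50 for Tac1, and it was 0.79 for Nts.

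The genes with the most similar pattern over the 12 libraries were found by Pearson r of log2 CPM, as a description. For Pdyn they were Nhlh1 (r = 0.980), Plekhg5 (0.980) and Tanc1 (0.973), which were 0.868, 0.914 and 0.917 over the 10 libraries with high Prox1. For Tac1 they were Foxp2 (0.929), LOC691995 (0.929) and Fam102b (0.921), and over the 10 libraries 0.820, 0.857 and 0.782. For Penk they were Fxr1 (0.915), Gnal (0.912) and Ptpro (0.881), and over the 10 libraries 0.719, 0.546 and 0.377. Nts was most like Igfbp4 (0.952), Ibsp (0.940) and Mid2 (0.935), and Cartpt was like Gstm1 (0.924) and Trpc7 (0.838). Adcyap1 was most like Dscam (0.938), Ttll12 (0.937) and Chd1 (0.926). Scg2 was most like Fam188a (0.911), Ptplad1 (0.905) and Arglu1 (0.883), and Chgb most like Acss2 (0.920), Fndc5 (0.904) and Ubqln1 (0.897). The libraries share depth and tissue composition, and no p belongs to a likeness chosen as the highest among all genes.

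Genes that process, sense or degrade these peptides were read from 4 lists. In the list of peptide processing and dense-core vesicle genes, 13 of 15 were in the files and 12 were tested, Pcsk1n being listed at 0 in every library. None passed the adjusted p in any comparison, and unadjusted p under 0.05 was found for 3 in FSL vehicle against FRL vehicle, 3 in responders against FSL vehicle, 2 in non-responders against FSL vehicle and 1 in responders against non-responders, beside 13.9%, 13.8%, 4.21% and 3.14% of all genes. In FSL vehicle against FRL vehicle 11 of the 12 had negative values, beside 6062 of 11750 over all tested genes, and the median log2 fold change was -0.19, against -0.01 over all. The sum of the 13 genes was 4388, 5004 and 3791 CPM in FSL vehicle 1, 2 and 3, and 4937 to 5299 CPM in FRL vehicle. FSL vehicle 2 thus lay inside the FRL vehicle range. FSL vehicle 3, with the highest meningeal sum (2832 CPM), was lowest of all libraries. The medians were 0.17, 0.08 and 0.08 in responders against FSL vehicle, non-responders against FSL vehicle and responders against non-responders, against 0.01, -0.00394 and 9.72e-04 over all genes. Cadps, a priming factor for dense-core vesicle release, was like Chgb below all 9 other libraries in FSL vehicle, as were 1% of all genes. It stood at 400, 416 and 455 CPM in LAC responders, 429, 398 and 398 CPM in non-responders, 348, 356 and 305 CPM in FSL vehicle, and 411, 452 and 440 CPM in FRL vehicle. Its log2 fold change was -0.37 ± 0.08 for FSL vehicle against FRL vehicle, 0.33 ± 0.08 for responders and 0.28 ± 0.08 for non-responders against FSL vehicle (edgeR quasi-likelihood, adjusted p = 0.195, 0.266 and 0.976). These adjusted p are in the order given. Pcsk2, a prohormone convertase, had -0.33 ± 0.10 for FSL vehicle against FRL vehicle and 0.24 ± 0.10 for non-responders against FSL vehicle. Chga, chromogranin A, had 0.37 ± 0.12 for responders against FSL vehicle (edgeR quasi-likelihood, adjusted p = 0.266) and 0.33 ± 0.11 for responders against non-responders. Every responder library was above every FSL vehicle and every non-responder library. Genes higher with no overlap made up 6.37% and 5.76% of all genes in these 2 comparisons. Responders (107 to 128 CPM) overlapped FRL vehicle (91.9 to 110 CPM) in Chga. Pcsk1, the other neuronal convertase, had 0.33 ± 0.26 in responders against non-responders.

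**Figure D4:**
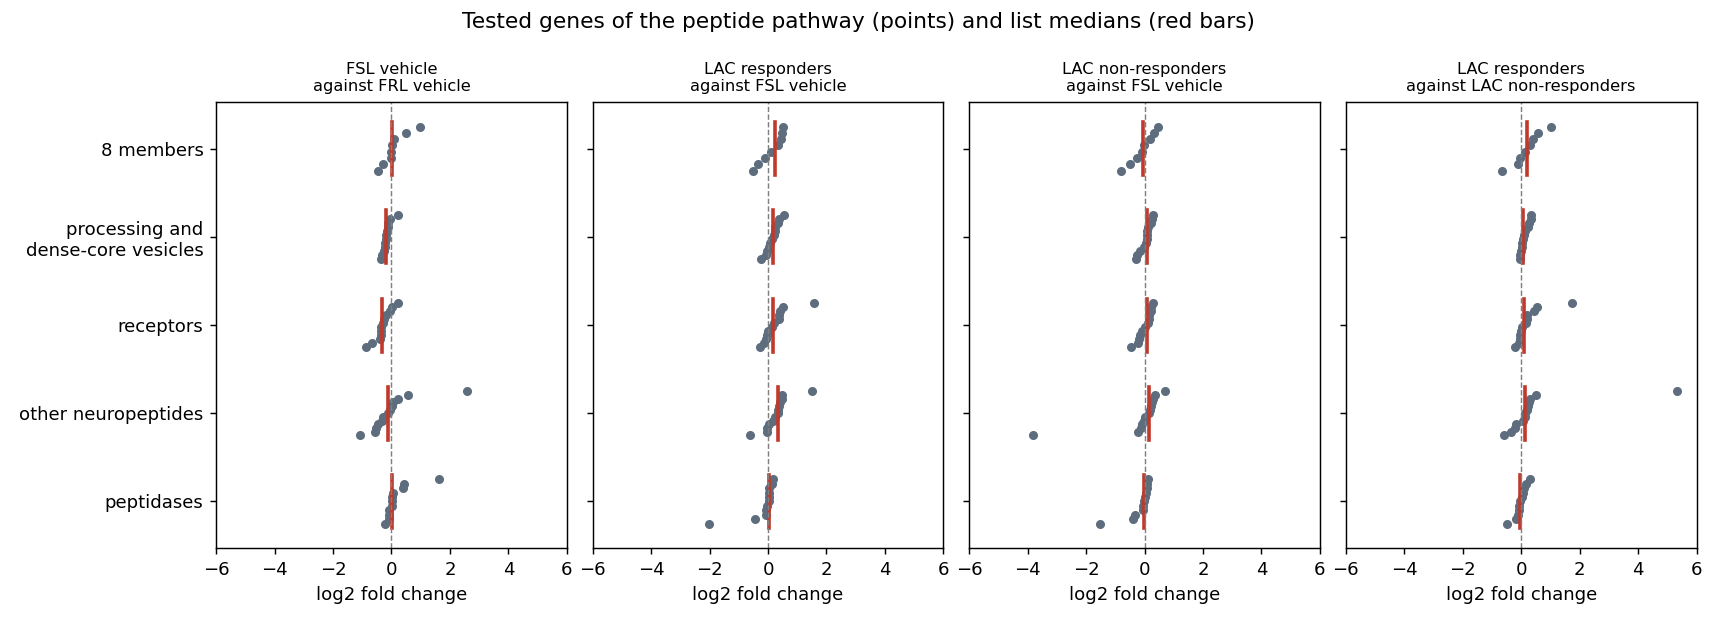
edgeR log2 fold changes (x axes) of the tested genes of 5 lists (rows) in the 4 comparisons; each point is 1 gene and each red bar the list median. Most processing and receptor genes sit left of 0 in the first panel, with medians of -0.19 and -0.32, and the far points among other neuropeptides are Pmch, whose counts were at or under 3 in 7 libraries.

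Of 13 receptor genes for these peptides 12 were tested, and none passed the adjusted p. FSL vehicle against FRL vehicle had 10 of 12 negative, with a median of -0.32, beside 6062 of 11750 negative and a median of -0.01 over all genes. The sum of the 13 genes was 1680, 1629 and 1400 CPM in FSL vehicle 1, 2 and 3, and 1705 to 1827 CPM in FRL vehicle, with FSL vehicle 3 again lowest of all libraries. An unadjusted p under 0.05 was found for 4, 1, 0 and 1 of the 12 in the 4 comparisons, beside 13.9%, 13.8%, 4.21% and 3.14% of all genes. Oprl1, the nociceptin receptor, had -0.24 ± 0.08 in FSL vehicle against FRL vehicle. FSL vehicle (67.2 to 71.1 CPM) lay below all other libraries (71.8 to 89.0 CPM) in Oprl1, a position held by 1% of all genes. Vipr1, a receptor for VIP and PACAP, had -0.37 ± 0.15 in that comparison. Oprk1, the kappa opioid receptor, had 1.56 ± 0.70 in responders against FSL vehicle and 1.76 ± 0.71 against non-responders, with 8.2 CPM in LAC responder 1 and 0.7 to 1.7 CPM in all other libraries. Ntsr2, the astrocytic neurotensin receptor, had 0.37 ± 0.17 in responders against FSL vehicle. In non-responders against FSL vehicle Sort1, a sorting receptor that binds neurotensin, had 0.21 ± 0.11 and the delta opioid receptor Oprd1 -0.47 ± 0.27. Oprd1 had 0.45 ± 0.27 in responders against non-responders.

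Of 23 other neuropeptide genes, all in the files, 13 were tested, and none passed the adjusted p. Npy, a peptide of hilar interneurons, was listed at 0 in all 12 libraries. Since the annotation used for counting is unknown here, neither this 0 nor that of Pcsk1n can be read as absent expression. Medians were -0.12 in FSL vehicle against FRL vehicle, 0.33 in responders against FSL vehicle, 0.17 in non-responders against FSL vehicle and 0.15 in responders against non-responders, and unadjusted p under 0.05 was found for 0, 0, 1 and 1 of the 13, beside 13.9%, 13.8%, 4.21% and 3.14% of all genes. Pmch, a peptide of the lateral hypothalamus, was the 1 in both, and its counts were at or under 3 in 7 of the 12 libraries. Cck, cholecystokinin, had -0.46 ± 0.22 in FSL vehicle against FRL vehicle, and somatostatin (Sst) had 0.48 ± 0.29 in responders against FSL vehicle. Gastrin-releasing peptide (Grp) had 0.71 ± 0.51 in non-responders against FSL vehicle, and Vip 0.49 ± 0.31 in responders against non-responders. All 11 peptidase genes were tested, and none passed the adjusted p. Medians lay between -0.04 and 0.02, and unadjusted p under 0.05 was found for 2, 1, 2 and 0 of the 11, in the same order of comparisons and beside the same shares of all genes. Enpep, a membrane aminopeptidase also found in vessel walls, had 1.63 ± 0.61 in FSL vehicle against FRL vehicle, -2.01 ± 0.62 in responders and -1.53 ± 0.61 in non-responders against FSL vehicle, and was highest in FSL vehicle 2 and 3 (23.1 and 30.5 CPM), the libraries with the highest meningeal sums. Mme, neprilysin, which degrades enkephalin and substance P, had 0.40 ± 0.17 in FSL vehicle against FRL vehicle, -0.38 ± 0.17 in non-responders against FSL vehicle and 0.32 ± 0.17 in responders against non-responders. Ece1 had -0.43 ± 0.23 in responders against FSL vehicle and Thop1 0.17 ± 0.14 in responders against non-responders.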

How the data were processed

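RNA of about 130 mg of tissue per sample was ribosome-depleted for stranded TruSeq libraries and read as 100 bp single reads, all libraries in 1 pool, per the labels' protocols and the design text. The deposited files hold raw read counts per gene symbol, not normalized, 1 file per library. Programs and build listed by the submitters' processing notes, with no roles, are TopHat2 2.0.9, HTSeq 0.6.1 and rn5. Which annotation and strand setting were used for counting is unknown here, so a gene and an overlapping antisense partner may share reads. The 5 summary lines entered no library size: 47.7% to 52.7% of reads lay outside genes, 0.0756% to 0.106% were ambiguous and 24.3% to 28.4% aligned to several places.

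Tests were run in R 4.3.3 with edgeR 4.0.16: TMM factors of 0.975 to 1.04, edgeR's own filter on low counts, then quasi-likelihood fitting (robust) with a mean for each group and two-sided tests. The SE is the absolute log2 fold change divided by the square root of F. The fit was tested on simulated data. That simulation gave every gene the same dispersion, so it does not speak for members with a wide spread such as Nts. An exact permutation test of 3 against 3 libraries cannot go below 0.1 and was not used. Libraries within a group differed by more than counting noise (chi-square per degree of freedom 5.35 or more). Alternatives were RLE factors, no filter, DESeq2 1.42.0, limma-voom (limma 3.58.1), the compared groups only, a replicate block, each library left out, 2 libraries left out together and a meningeal covariate.

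The members and gene lists were chosen with earlier results of these data known. Named genes were the members, the 3 genes most like each (Pearson r of log2 CPM, prior count 2), the first 2 genes of a marker list and, per pathway list and comparison, the 2 genes of smallest p. Npy, Pcsk1n, Col1a2, Tdo2 and the further marker genes named above were added after their values were seen. For Cartpt, 1 of its 3 genes is not reported here. Titles number libraries 1 to 3 in each group. The labels name no pairing, and the main fit used none. Deviations of same-numbered libraries from their group means correlated at 0.581, 0.212 and 0.426 between non-responders and FSL vehicle. No other comparison passed a limit of 0.1 in every pair, and a replicate block was run as an alternative. Unlike-numbered non-responder 2 and FSL vehicle 3 correlated at 0.318. Non-responder 1 and FSL vehicle 1, the pair at 0.581, had the highest choroid plexus sums (6279 and 3349 CPM). These correlations therefore cannot show whether libraries were paired. Promoter sequences are RefSeq's on GRCr8, another build than the counts' rn5.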

Additional observations from a re-analysis of the deposited data

How the results depend on the processing

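The number of genes called in FSL vehicle against FRL vehicle, 8 with edgeR, was 160 with DESeq2, 5 with limma-voom, 2 in a fit of the compared groups only, 2 without FRL vehicle 2 and LAC responder 1, 1 with the meningeal covariate and 2 to 271 with 1 library left out, the highest without FSL vehicle 1. In responders against FSL vehicle, 0 with edgeR (1619 genes at an unadjusted p under 0.05), it was 187 with DESeq2 and 0 to 349 with 1 library left out, again highest without FSL vehicle 1. In non-responders against FSL vehicle, 0 with edgeR (495 unadjusted), it was 2 with DESeq2, and in the test over 4 groups, 3 with edgeR, it was 5 with RLE factors, 6 with no filter, 191 with DESeq2, 6 with the covariate and 2 to 98 with 1 library left out. With a replicate block, 4 genes passed in FSL vehicle against FRL vehicle and 0 in the comparisons that involve LAC, and the block changed no call of a member. No member passed the adjusted p under any alternative run. Of 312 member values under the settings that do not leave out a single library, 20 changed sign and 292 were unchanged in sign and side of the threshold. With 1 library left out, it was 31 and 257 of 288. Both totals also hold the adjusted p of the test over 4 groups, which have no sign to change. The share that changed sign among log2 fold changes alone is therefore larger. Without FRL vehicle 2 and LAC responder 1, the log2 fold changes that changed sign were -0.36 for Pdyn and -0.12 for Nts in FSL vehicle against FRL vehicle, -0.68 for Penk, 0.11 for Pdyn and -0.54 for Tac1 in responders against FSL vehicle, and -0.58 for Penk, -0.032 for Tac1 and 0.082 for Chgb in responders against non-responders. With limma-voom they were, for Nts, -0.14 in FSL vehicle against FRL vehicle, -0.13 in responders and 0.094 in non-responders against FSL vehicle, and -0.23 in responders against non-responders, and 0.022 for Adcyap1 in non-responders against FSL vehicle. With the meningeal covariate they were -0.97 for Tac1 and 0.20 for Scg2 in FSL vehicle against FRL vehicle, -1.82 for Nts in responders against FSL vehicle, and -1.31 for Nts and -0.078 for Scg2 in responders against non-responders. Tac1 in FSL vehicle against FRL vehicle was -0.0053 with no filter and -0.0052 in the compared groups only. With 1 library left out, values that crossed 0 ranged in FSL vehicle against FRL vehicle from -0.36 to 0.47 for Pdyn, -0.26 to 0.22 for Tac1, -0.89 to 0.59 for Nts and -0.20 to 0.12 for Scg2, in LAC responders against FSL vehicle from -0.68 to 0.82 for Penk, -0.73 to 0.11 for Pdyn, -0.54 to 0.93 for Tac1, -0.32 to 0.088 for Adcyap1 and -0.69 to 1.11 for Nts, in LAC non-responders against FSL vehicle from -0.32 to 0.085 for Penk, -0.22 to 0.19 for Adcyap1 and -0.61 to 0.72 for Nts, in LAC responders against LAC non-responders from -0.58 to 0.92 for Penk, -0.032 to 1.44 for Tac1, -0.27 to 0.019 for Adcyap1, -0.41 to 0.91 for Nts, -0.025 to 0.51 for Cartpt and -0.15 to 0.081 for Chgb. The cause of these changes was not tested. With 3 libraries a group, the 95% intervals of Penk, Pdyn, Tac1 and Nts reached past a 2-fold change in at least 1 direction in all 4 comparisons, and Cartpt had as few as 5 reads.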
